A study of Mus musculus with 9 samples.

Results

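A set of 10 mouse genes of the killer-cell lectin-like receptor (Klr) family were followed across 3 sorted spleen populations: Klrd1, Klrk1, Klrc1, Klrc2, Klrb1c, Klrb1b, Klre1, Klrg1, Klra1 and Klra7. They were taken by symbol, 10 of the 50508 rows of the count table, as the members of the family best known from natural killer (NK) cells, and all 10 passed the filter on low counts. The populations were conventional T cells, conventional dendritic cells (DC) and a population that the submitters call TDC, each with 3 libraries. All mice were untreated, 8 weeks of age and homozygous for Zbtb46-GFP, a reporter that puts green fluorescent protein at the Zbtb46 locus, which conventional DC use, so T cells and DC carried the reporter too. Replicate 1 of each population came from the pooled spleens of 5 mice and replicates 2 and 3 from pools of 6. Which animals went into a pool is not in the labels, so the p-values speak of spread among pools. Strain and sorting gates were not given in the sources used here.

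The receptors of this family are membrane proteins with a C-type lectin-like domain, and their genes lie close together in the NK gene complex. Klrd1 encodes CD94, which pairs with NKG2A (Klrc1, inhibitory) or NKG2C (Klrc2, activating) to read the class Ib molecule Qa-1. Klrk1 encodes NKG2D, an activating receptor for stress ligands that signals through the adaptors DAP10 (Hcst) and DAP12 (Tyrobp). Klrb1c and Klrb1b encode NKR-P1 receptors, a group that reads Clec2 proteins, Klrg1 binds cadherins, and Klra1 and Klra7 encode the Ly49 receptors A and G, which bind classical class I molecules. Several of these receptors are also used by activated or memory CD8 T cells, and some by subsets of DC.

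In the mouse annotation of build GRCm38, 9 of the 10 genes lay within 1.608 Mb of chromosome 6 (128778485 to 130386874), and Klrg1 lay 6.496 Mb before them (122270596 to 122282882). Klrd1 was at 129591782 to 129598775 on the plus strand, next to Klre1 (129577905 to 129585827, plus) and Klrk1 (129610323 to 129623864, minus). Klrc2 (129647496 to 129660689) and Klrc1 (129666015 to 129678973) followed, then Klra7 (130218605 to 130233322) and Klra1 (130363917 to 130386874), all on the minus strand. Klrb1c (128778485 to 128789215) and Klrb1b (128813706 to 128826331), also on the minus strand, opened the group.

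The stretches of 250 bases before the RefSeq start sites (GRCm38.p6) are shown for the genes on which the results turn. Klrc1 and Klrc2 are neighbouring copies of which only the second was called lower in TDC than in T cells, and Klrk1 was the member called higher. Klra1 and Klra7 had their reads in T cells, whereas Klra2, a Ly49 gene beyond Klra1 on the same chromosome (131219223 to 131247362), had most of its reads in TDC. Each is written 5′ to 3′ on the strand of its gene, here always the minus strand, with capitals marking the letters TGTGGT, a core that RUNX factors are known to bind, or its reverse complement. Klrc1 is from chr6:129678974-129679223, Klrc2 (its first start) from chr6:129660597-129660846, Klrk1 from chr6:129623865-129624114, Klra1 from chr6:130386875-130387124, Klra7 (its second start) from chr6:130233323-130233572 and Klra2 from chr6:131247363-131247612.
Klrc1: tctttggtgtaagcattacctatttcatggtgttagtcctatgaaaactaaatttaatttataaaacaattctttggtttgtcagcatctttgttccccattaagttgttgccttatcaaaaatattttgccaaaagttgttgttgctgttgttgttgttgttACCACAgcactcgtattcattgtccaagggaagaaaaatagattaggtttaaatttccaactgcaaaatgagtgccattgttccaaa
Klrc2: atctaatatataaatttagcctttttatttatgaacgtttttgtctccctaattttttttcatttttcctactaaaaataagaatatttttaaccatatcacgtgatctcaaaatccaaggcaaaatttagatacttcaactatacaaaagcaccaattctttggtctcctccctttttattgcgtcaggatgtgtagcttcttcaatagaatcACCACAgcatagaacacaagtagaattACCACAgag
Klrk1: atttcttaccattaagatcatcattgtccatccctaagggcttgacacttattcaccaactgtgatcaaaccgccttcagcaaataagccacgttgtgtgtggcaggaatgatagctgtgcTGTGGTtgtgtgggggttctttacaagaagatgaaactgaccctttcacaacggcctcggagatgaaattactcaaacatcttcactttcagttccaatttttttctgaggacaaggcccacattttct
Klra1: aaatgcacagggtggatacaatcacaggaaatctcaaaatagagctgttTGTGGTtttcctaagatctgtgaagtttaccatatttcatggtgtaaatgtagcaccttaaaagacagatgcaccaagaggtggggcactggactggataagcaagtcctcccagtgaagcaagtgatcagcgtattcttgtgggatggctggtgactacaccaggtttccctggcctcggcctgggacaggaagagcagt
Klra7: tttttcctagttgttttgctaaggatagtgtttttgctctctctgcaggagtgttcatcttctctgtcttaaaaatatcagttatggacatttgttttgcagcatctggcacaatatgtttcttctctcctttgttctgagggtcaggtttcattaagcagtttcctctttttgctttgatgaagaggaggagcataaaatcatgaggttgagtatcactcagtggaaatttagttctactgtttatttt
Klra2: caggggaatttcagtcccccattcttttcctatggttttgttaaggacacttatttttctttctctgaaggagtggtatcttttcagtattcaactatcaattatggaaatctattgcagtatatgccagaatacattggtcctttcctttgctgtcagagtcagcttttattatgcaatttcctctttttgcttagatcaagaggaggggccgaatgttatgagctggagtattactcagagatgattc

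TGTGGT was found on either strand in 7 of the 12 start sites that the RefSeq table holds for 8 of the 10 genes, and in 14.05% of 32851 promoter windows of the same length. The windows of the first and second starts overlap for Klrb1b, Klre1 and Klrc2, though not for Klra7, so the 12 are not separate sequences. Both windows of Klrc2 are among the 7. AGGTGTGA, a T-box motif, and GAGGAAGT, a motif of PU.1, were in none of the 12, beside 1.12% and 2.441% of all windows, and no found motif overlapped another. The windows of Klra7 (second start) and Klra2 were identical at 76.2% of 227 aligned bases and those of Klra7 (second start) and Klra1 at 60.95% of 169. Those of Klrc1 and Klrc2 (first start) were identical at 61.6% of 172. With the first start of Klra7 the values were 53.8% of 210 for Klra2 and 58.5% of 224 for Klra1. Windows from different Klr groups reached 72.3% of 83 for Klrb1a and Klri1, 67.7% of 192 for Klra6 and Klrc1 and 65% of 200 for Klra1 and Klrb1. The values for Klra7 with Klra1 and for Klrc1 with Klrc2 therefore do not by themselves show shared sequence. A match in these letters is a description of the window and not a binding site.

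Libraries held 10986544 to 25676640 reads assigned to genes. Values are CPM (read counts scaled to library size with TMM factors), as single libraries or as mean ± SD of the 3 libraries, log2 fold changes have their standard error (SE), and adjusted p-values come from the quasi-likelihood test of edgeR, corrected by Benjamini-Hochberg over 14708 genes, with 0.05 as the threshold for a call. Over a group, 3 reads were worth 0.0557 CPM in T cells, 0.0706 CPM in TDC and 0.0524 CPM in DC, which is the limit that no reads allow and covers counting error only. The 9 T cell markers summed to 5756 to 8193 CPM in T cell libraries, 253 to 503 CPM in TDC and 350 to 375 CPM in DC, where Cd3e had no read. The 7 DC markers summed to 1973 to 2869 CPM in DC and 200 to 438 CPM in TDC, and the 948 to 1515 CPM of T cells were almost all Ccr7 (1194 ± 289 CPM). TDC libraries also held macrophage markers, with 8 of 8 genes in every library and a sum of 36110 to 52705 CPM against 162 to 540 CPM in DC and at most 3.09 CPM in T cells, and erythroid markers at 147 to 227 CPM against at most 1.93 CPM elsewhere. B cell markers summed to 14.1 to 32.2 CPM (T cells), 68.3 to 129 CPM (TDC) and 207 to 279 CPM (DC), and neutrophil markers to at most 0.0988 CPM, 121 to 148 CPM and 62.0 to 129 CPM. Cd8a was at 523 ± 111 CPM in T cells, 39.4 ± 29.3 CPM in TDC and 253 ± 43.9 CPM in DC. Reads of Ncr1, a gene that defines NK cells, were found in T cell replicate 1 (8 reads) and DC replicate 1 (42 reads) and in none of the other libraries. Eomes, a factor of NK and memory CD8 T cells, averaged 20.5 ± 8.04 CPM over T cell libraries, with 0, 0.0558 and 1.19 CPM in the TDC libraries and no read in DC. The part of these cell types in the results below was not tested.

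TDC carried a different set of these receptors from T cells. Of the 10 genes, 8 were called between TDC and T cells, against 33% of all genes tested: 7 were lower in TDC (11.2% of all genes) and 1, Klrk1, was higher (21.8%). Klrd1, Klrc2, Klre1, Klrb1c, Klrg1, Klra1 and Klra7 were lower, and Klrc1 and Klrb1b were not called. Klrc2, Klrb1c, Klra1 and Klra7 passed the filter on low counts only with the T cell libraries included, where they were high. For these genes a call as lower in TDC was likely from the outset, so the count of 7 says little about them. The median log2 fold change of the 10 genes was -5.01, beside 0.14 for all genes tested. For the 9 T cell markers it was -5.30, with 8 of them called lower in TDC, so a fall of this size was not particular to the receptor genes. In such bulk libraries, fewer cells that use a gene and less RNA per cell cannot be told apart.

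**Figure D1:**
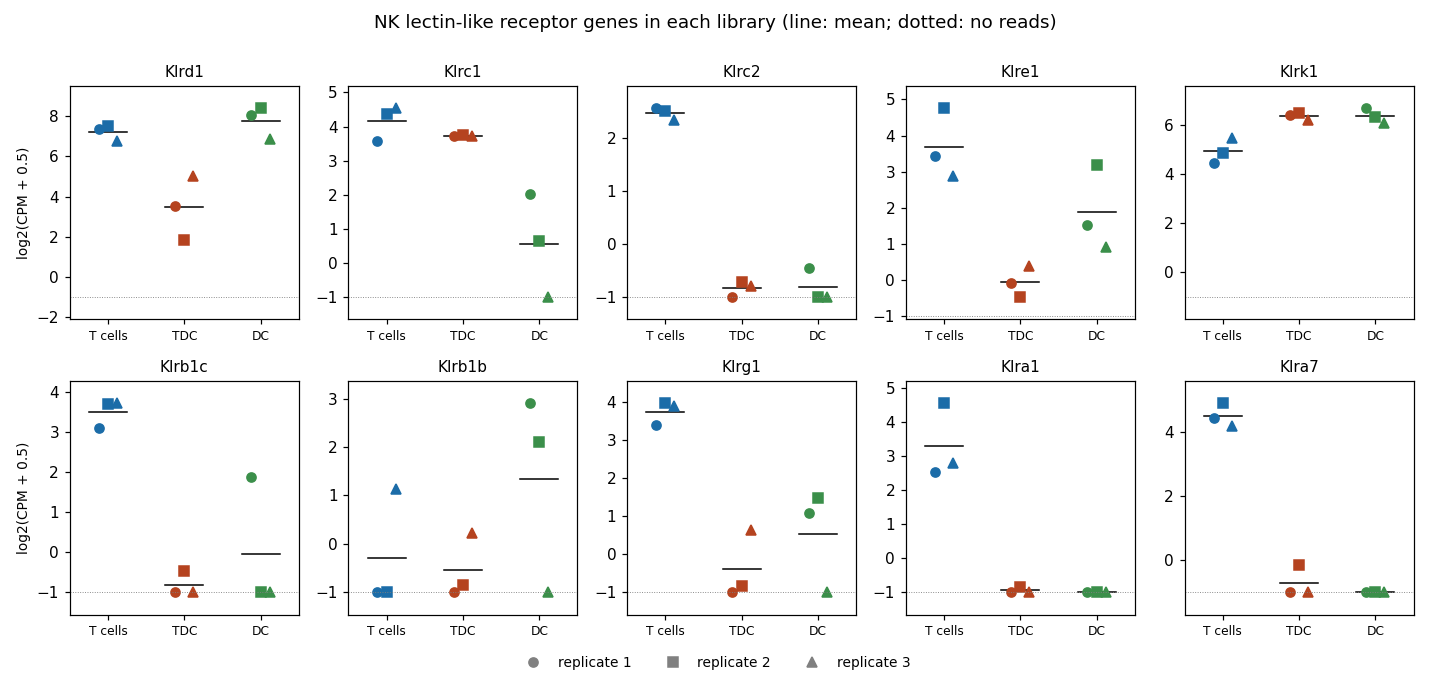
Each panel shows 1 receptor gene as log2(CPM + 0.5) in the 9 libraries, with symbols for replicates 1 to 3, a line at the group's mean on this scale and a dotted line where a library has no reads. In TDC, Klrk1 (71.6 to 87.7 CPM) and Klrc1 (12.7 to 12.9 CPM) sit within narrow ranges, whereas Klra1 and Klra7 have no reads in 2 of the 3 TDC libraries.

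Summed over the 10 genes, T cell libraries held 241 to 344 CPM, TDC 105 to 119 CPM and DC 185 to 432 CPM. The make-up of the sum differed between the populations. Klrd1 took 45.8% to 63.8% of the reads of the 10 genes in T cells, 63.4% to 78.0% in DC and 2.93% to 27.3% in TDC. Klrk1 took 8.18% to 18.1% in T cells, 18.3% to 35.9% in DC and 59.95% to 83.7% in TDC. With scaling by library size alone the mean sum was 343 CPM (T cells) and 90.3 CPM (TDC), in place of 280 and 111 CPM.

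Klrd1, the CD94 chain that NKG2A and NKG2C need to reach the cell surface, was at 163, 184 and 110 CPM in T cells, at 10.9, 3.07 and 32.6 CPM in TDC and at 268, 337 and 117 CPM in DC. All TDC libraries lay below all libraries of both other populations, while T cells and DC overlapped. The mean in TDC was 10.2% of that in T cells (a log2 fold change of -3.30, SE 0.75, adjusted p = 0.00697) and 6.45% of that in DC (-3.96, SE 0.77, adjusted p = 0.00709). Klrd1 was the only member called lower in TDC than in both controls by this test, and DC and T cells were not called apart (0.66, SE 0.68, adjusted p = 0.549). TDC replicate 3 was the highest TDC library, and without it the log2 fold change was -4.50 against T cells and -5.17 against DC. The same library was highest among TDC for the DC genes Flt3 (13.7, 23.5 and 75.6 CPM in replicates 1 to 3) and Klri1 (0.359, 1.45 and 7.75 CPM), and for the summed T cell markers (253, 280 and 503 CPM). Within that sum, Cd3g (45.1, 9.42 and 34.2 CPM), Cd3d (25.3, 5.46 and 20.8 CPM) and Cd3e (11.4, 4.96 and 10.7 CPM) were highest in replicate 1. The other listed T cell markers were highest in replicate 3, with Cd4 at 57.6, 209 and 243 CPM and Trac at 33.1, 9.93 and 34.7 CPM. The part of either cell type in the Klrd1 value of TDC replicate 3 was not tested.

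Klrc1, the inhibitory NKG2A chain, was not called different between TDC and T cells. It was at 11.4, 20.2 and 22.6 CPM in T cells, at 12.7, 12.9 and 12.7 CPM in TDC (141, 231 and 170 reads) and at 3.56, 1.05 and 0 CPM in DC. TDC overlapped with T cells and lay above every DC library. The difference from T cells was -0.51 (SE 0.98, 95% interval -2.68 to 1.67, adjusted p = 0.733), an interval that reaches from a fall to a rise of more than 1 log2 unit. Against DC the log2 fold change was 3.02 (SE 1.07) with an adjusted p of 0.0897, so this difference missed the threshold, which it passed with DESeq2 (adjusted p = 0.00970), with limma-voom (0.0196) and without DC replicate 1 (0.0405) or DC replicate 3 (0.0352). DC were lower than T cells (-3.53, SE 1.09, adjusted p = 0.0383), a call that was lost without any 1 of the T cell libraries, TDC replicate 2, TDC replicate 3 or DC replicate 2 (adjusted p from 0.0572 to 0.0914), in a fit of those 2 populations alone (0.0673) and with the replicate number as a block (0.0619).

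For each 100 reads of Klrd1, the libraries held 6.998, 11.004 and 20.5 reads of Klrc1 in T cells, 116, 420 and 38.9 in TDC and 1.33, 0.310 and 0 in DC. The 3 populations did not overlap in this ratio, which was highest in TDC. It compares the same pair of genes between populations and gives no ratio of transcripts, since the 2 rows can differ in how well their ends are read.

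Klrc2, the activating NKG2C chain, was at 5.42, 5.23 and 4.58 CPM in T cells. TDC had 0, 0.112 and 0.0745 CPM, which was 3 reads in all, and DC had 0.230, 0 and 0 CPM, 6 reads in all. Both were below every T cell library and were called lower (TDC -6.11, SE 1.46, adjusted p = 0.00916, and DC -5.76, SE 1.40, adjusted p = 0.0125). With so few reads in TDC and DC, the size of these falls is uncertain. Klrc1 and Klrc2 share sequence near their 3' ends: 53.1% of the 50-base windows in the last 300 transcript bases of Klrc1 occurred in Klrc2 as well, and 20.1% of those of Klrc2 in Klrc1. Their split is therefore uncertain. The sum of Klrc1, Klrc2 and Klrc3 was 23.4 ± 5.72 CPM in T cells, 12.8 ± 0.175 CPM in TDC and 1.61 ± 1.96 CPM in DC, with no call for TDC against T cells (-0.87, SE 0.96, adjusted p = 0.531) and a lower sum in DC than in T cells (-3.83, SE 1.08, adjusted p = 0.0257).

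Klre1, whose product pairs with Klri proteins and is known from NK cells, was at 10.2, 26.4 and 6.90 CPM in T cells, at 0.449, 0.223 and 0.820 CPM in TDC and at 2.37, 8.64 and 1.37 CPM in DC. Every TDC library lay below every library of T cells and of DC. The fall against T cells was called (-4.86, SE 1.01, adjusted p = 0.00448). Against DC the difference of -3.04 (SE 0.95) had an adjusted p of 0.0582, and it was called with DESeq2 (0.00504), with no filter on low counts (0.0350), with library size as the scale (0.0391) and without DC replicate 3 (0.0318). For DC against T cells the log2 fold change was -1.82 (SE 0.87, adjusted p = 0.165), which became -2.89 and a call without DC replicate 2 (adjusted p = 0.0459).

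Klrk1, the NKG2D receptor, was the only 1 of the 10 genes called higher in TDC than T cells. It was at 20.9, 28.5 and 43.6 CPM in T cells, at 83.6, 87.7 and 71.6 CPM in TDC and at 100.4, 79.1 and 66.3 CPM in DC. All TDC and all DC libraries lay above all T cell libraries, and TDC and DC overlapped. The mean of TDC was 261% of that of T cells (a log2 fold change of 1.38, SE 0.34, adjusted p = 0.0109), and DC were also higher than T cells (1.40, SE 0.34, adjusted p = 0.0128). TDC and DC differed by -0.02 (95% interval -0.76 to 0.73, adjusted p = 0.988). The call for TDC was lost with scaling by library size alone (0.76, adjusted p = 0.105), which moved the median of all genes by -0.61 in this comparison, and without both libraries that held Ncr1 reads (1.17, adjusted p = 0.0630). The call for DC was lost without T cell replicate 1, T cell replicate 2 or DC replicate 1 (adjusted p from 0.0545 to 0.0562) and without both libraries with Ncr1 reads (1.01, adjusted p = 0.157).

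Klrb1c encodes NK1.1, the antigen by which mouse NK and NKT cells are often stained. It was at 8.02, 12.5 and 12.5 CPM in T cells, at 0, 0.223 and 0 CPM in TDC and at 3.14, 0 and 0 CPM in DC. TDC and DC both lay below T cells. The 4 reads in TDC came from replicate 2 and the 82 reads in DC from replicate 1, the DC library with Ncr1 reads. TDC were called lower than T cells (-6.90, SE 2.06, adjusted p = 0.0257), and the call was lost without T cell replicate 2, T cell replicate 3 or any 1 of the TDC libraries (adjusted p from 0.0516 to 0.0866). It was also lost when Klrb1c was summed with the rows that share its end windows, Klrb1b, Klrb1a and Klrb1-ps1 (-4.67, SE 1.65, adjusted p = 0.0518). DC against T cells gave -3.35 (SE 1.66, adjusted p = 0.180), and -10.45 with a call without DC replicate 1 (adjusted p = 0.00843).

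Klrb1b, an inhibitory receptor for Clec2d, was at 0, 0 and 1.70 CPM in T cells, at 0, 0.0558 and 0.671 CPM in TDC and at 7.004, 3.83 and 0 CPM in DC. The 3 populations overlapped. No comparison was called (adjusted p = 0.701 for TDC and T cells, 0.299 for TDC and DC, and 0.415 for DC and T cells). The row has 10 reads in TDC and 33 in T cells, of which all came from replicate 3. Both Klrb1 rows lie on the same strand as the overlapping gene model Gm44511, which had no reads in any library, and 11.6% of the end windows of Klrb1c and 24.2% of those of Klrb1b occurred in other gene models.

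Klra1 and Klra7, the Ly49 receptors A and G, had reads almost only in T cells. Klra1 was at 5.35, 23.1 and 6.49 CPM in T cells, at 0, 0.0558 and 0 CPM in TDC, which is 1 read, and had no reads in DC. Klra7 was at 21.2, 29.3 and 17.8 CPM in T cells, at 0, 0.390 and 0 CPM in TDC, which is 7 reads, and had no reads in DC. T cell replicate 2 was the highest library for both.

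Both Ly49 genes were called lower in TDC than in T cells, Klra1 with a log2 fold change of -8.61 (SE 1.38, adjusted p = 0.00196) and Klra7 with -7.20 (SE 1.25, adjusted p = 0.00285). The mean of Klra1 in TDC, 0.0186 CPM, lay below the 0.0706 CPM that 3 reads were worth, so the size of its fall is uncertain. For Klra7 the mean in TDC was 0.572% of that in T cells. In DC, Klra1 was at least 222-fold lower than in T cells (adjusted p = 0.00147) and Klra7 at least 434-fold lower (adjusted p = 0.00130), bounds computed with 3 reads over the DC group. By comparison, the T cell receptor chain Trac was in TDC at 2.01% and the CD3 chain Cd3e at 2.55% of the level in T cells, and the difference between these shares and those of the receptor genes was not tested. No end window of Klra1 occurred in another gene model, while 27.0% of those of Klra7 did, all of them in the pseudogene row Klra13-ps. Klra7 and Klra13-ps together averaged 42.4 ± 9.83 CPM (T cells) and 0.360 ± 0.312 CPM (TDC; log2 fold change -6.79, SE 1.10, adjusted p = 0.00106).

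Klrg1, an inhibitory receptor for cadherins and a mark of late effector T cells, was at 9.99, 15.2 and 14.5 CPM in T cells, at 0, 0.0558 and 1.04 CPM in TDC and at 1.61, 2.30 and 0 CPM in DC. TDC and DC both lay below T cells and overlapped with each other. TDC were called lower than T cells (-5.15, SE 1.62, adjusted p = 0.0323). The call was lost without any 1 of the T cell libraries, TDC replicate 1 or TDC replicate 2 (log2 fold changes from -5.31 to -4.58, adjusted p from 0.0598 to 0.104). It was also lost with the replicate block (-5.49, adjusted p = 0.0617) and without both libraries with Ncr1 reads (-5.31, adjusted p = 0.0848). DC against T cells gave -3.34 (SE 1.46, adjusted p = 0.130), and was called with DESeq2 (adjusted p = 0.0414) and with limma-voom (0.0148).

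**Figure D2:**
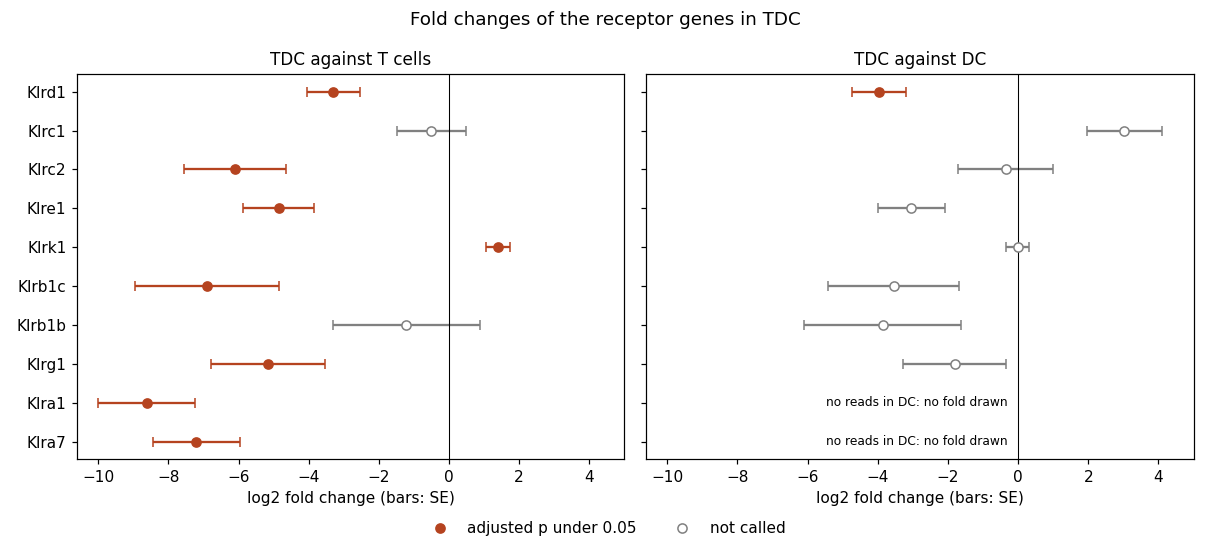
Points are log2 fold changes of the 10 receptor genes, on the left for TDC against T cells and on the right for TDC against DC, with bars of 1 SE, filled where the adjusted p is under 0.05. On the left 7 genes lie below 0 and Klrk1 above it with a call, and on the right Klrd1 (-3.96) is the only filled point, with Klrc1 (3.02) on the other side of 0. Klra1 and Klrc2 had very few reads in TDC, so the size of their falls on the left is uncertain.

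Between TDC and DC, 1 of the 10 genes was called, against 14.1% of all genes tested. It was Klrd1, which was lower (4.6% of all genes), and no member was called higher (9.55%), with 2 higher at an unadjusted p under 0.05, 1 with DESeq2 and 1 with limma-voom. The median log2 fold change was -1.08, beside 0.01 for all genes, and it includes Klra1 and Klra7, which had few reads here. In a fit of TDC and DC alone, 5 of the 10 genes passed the filter: Klrd1, Klrk1, Klrc1, Klre1 and Klrg1. In that fit 1 of them, Klrd1, was called, against 13.4% of all genes. The others passed only with the T cell libraries included, so the count of 1 in 10 says little about them. Klrc1 (higher) and Klre1 (lower) also had no overlap between TDC and DC libraries but were not called. The share of all genes without overlap is not given here, and 3 libraries against 3 allow no exact two-sided p below 0.1. For the low rows Klrc2, Klrb1c, Klrb1b and Klrg1 the 95% intervals ran from -3.35 to 2.65, -7.68 to 0.58, -8.85 to 1.12 and -5.04 to 1.42, so that falls of several fold lie inside each of the intervals. Klra1 and Klra7 had at most 7 reads in the 6 libraries, and no fold is given.

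Between DC and T cells, 5 of the 10 genes were called, against 23.8% of all genes tested. Klrk1 was higher in DC (15.4% of all genes), and Klrc1, Klrc2, Klra1 and Klra7 were lower (8.41%). Klrc2, Klra1 and Klra7 passed the filter only with the T cell libraries included, so their calls as lower in DC were likely from the outset. The median was -3.35, beside 0.08 for all genes. This comparison shares its libraries with the other comparisons, so the values for TDC and DC against T cells rest on the same 3 T cell libraries. Klrc1, Klrc2, Klrb1c, Klrb1b and Klrg1 had reads in DC replicate 1 and none in DC replicate 3.

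The other rows of the Klr family also differed between the populations. The table held 20 further Klr rows, of which 17 had reads and 10 were tested. Between TDC and T cells, 3 were higher in TDC and 4 lower, beside 21.8% and 11.2% of all genes tested. Between TDC and DC, 1 was higher in TDC and 4 lower (9.55% and 4.6% of all genes). Between DC and T cells, 5 were higher in DC and 3 lower (15.4% and 8.41%). Of all 30 rows, 20 reached 1 CPM on average in a population, of which 10 had their highest mean in T cells, 1 in TDC and 9 in DC.

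The row with its highest mean in TDC was Klra2, which encodes Ly49B, an inhibitory Ly49 receptor known from myeloid cells. It had no reads in T cells, 68.0, 33.7 and 47.2 CPM in TDC and 2.87, 0.139 and 6.74 CPM in DC. All TDC libraries lay above all others. TDC were at least 892-fold higher than T cells (adjusted p = 0.000964) and also higher than DC (log2 fold change 3.93, SE 1.03, adjusted p = 0.0381). No end window of Klra2 occurred in another gene model, and its promoter window printed above did not hold the letters TGTGGT. Macrophage markers were highest in the same libraries, as given above, and their part in the Klra2 level was not tested. The sum of all Klra rows, Klra2 included, was not called between TDC (51.5 ± 16.4 CPM) and T cells (65.2 ± 20.6 CPM, log2 fold change -0.34, SE 0.36, adjusted p = 0.506), while Klra1 and Klra7 were lower and Klra2 was higher in TDC.

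Klri1, Klri2 and Klrb1f were the other rows with the highest means, and all had them in DC, as had Klra17 (0 CPM over T cells, 1.35 ± 1.88 CPM over TDC and 21.8 ± 2.54 CPM over DC). Klri1 and Klri2 encode receptors that pair with Klre1. Klri1 averaged 91.5 ± 9.80 CPM over the DC libraries, 3.19 ± 3.99 CPM over TDC and 0.141 ± 0.244 CPM over T cells, and was lower in TDC than in DC (-4.84, SE 1.08, adjusted p = 0.0141). Klri2 averaged 73.6 ± 21.5 CPM over the DC libraries, 2.46 ± 1.44 CPM over TDC and 0.559 ± 0.506 CPM over T cells (TDC against DC -4.90, SE 0.88, adjusted p = 0.00502). Klrb1f, an activating receptor of the Klrb1 group, averaged 52.4 ± 10.3 CPM over the DC libraries, 1.65 ± 2.58 CPM over TDC and 3.00 ± 1.09 CPM over T cells (TDC against DC -4.98, SE 1.18, adjusted p = 0.0182). In TDC, Klri1, Klri2 and Klrb1f were highest in replicate 3.

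**Figure D3:**
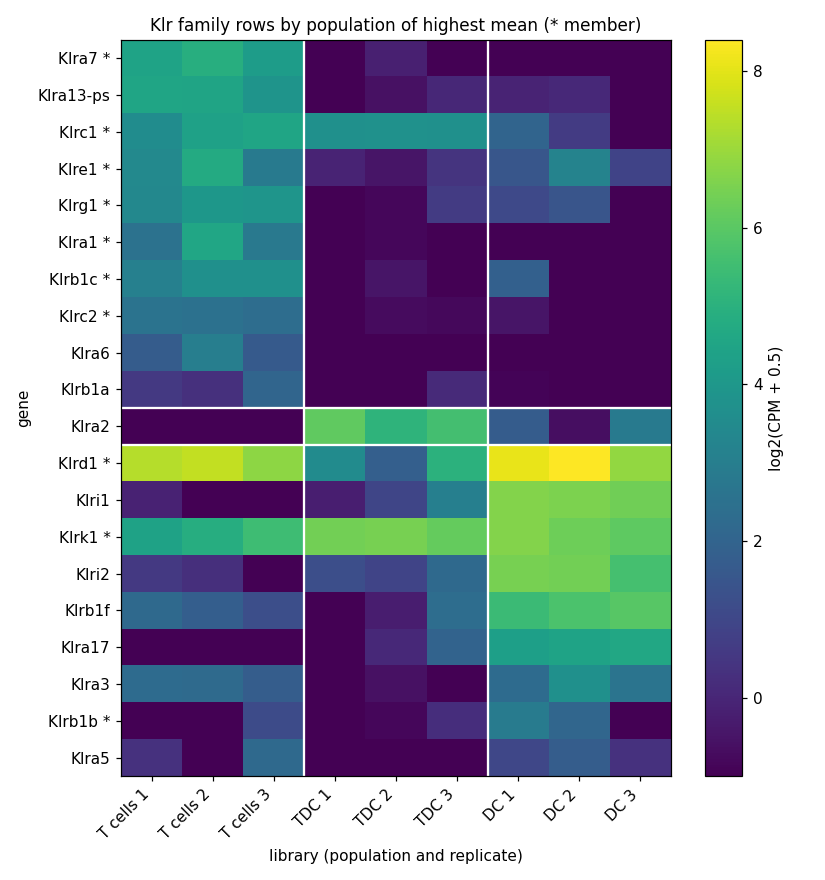
Rows are the 20 Klr genes with a mean of at least 1 CPM in a population, ordered by the population of their highest mean and marked with a star where they belong to the 10 genes, columns are the 9 libraries, and colour is log2(CPM + 0.5). The top block of 10 rows has its highest means in T cells, Klra2 alone has its highest mean in TDC, and the lower block of 9 rows, with Klrd1 and Klrk1, has its highest means in DC.

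The adaptors through which the activating receptors signal split between the populations. Of 15 genes of activating signalling, TDC had 6 above and 6 below the T cell level with a call, and 6 above the DC level, with medians of -0.50 and 1.10. Of all genes tested, 21.8% were called above and 11.2% below T cells and 9.55% above DC, with medians of 0.14 and 0.01. None of the 15 was lower in TDC than in DC by edgeR (4.6% of all genes), at an unadjusted p under 0.05 (0 genes), with DESeq2 (0) or with limma-voom (0). Tyrobp (DAP12), the partner of NKG2C, NKG2D and activating Ly49 receptors, was at 4.36, 4.69 and 3.81 CPM in T cells, at 3257, 1242 and 1144 CPM in TDC and at 795, 1853 and 453 CPM in DC. TDC and DC lay far above T cells and overlapped with each other (TDC against T cells 8.77, SE 0.76, adjusted p = 2.25e-05, and TDC against DC 0.86, SE 0.54, adjusted p = 0.340). Fcer1g, the Fc receptor gamma chain, was at 7.54 ± 2.57 CPM in T cells, 2187 ± 1357 CPM in TDC and 515 ± 312 CPM in DC, and was higher in TDC than in both. Macrophages are known to use both adaptors, and the macrophage markers given above were highest in TDC. Their part in the adaptor levels was not tested.

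Hcst (DAP10), the adaptor of NKG2D, went the other way from Klrk1. It was at 130, 214 and 126 CPM in T cells, at 52.7, 20.4 and 19.3 CPM in TDC and at 13.6, 22.4 and 4.53 CPM in DC. TDC and DC lay below T cells and overlapped. The difference was called for TDC against T cells (-2.35, SE 0.60, adjusted p = 0.0128) and not for TDC against DC (1.19, SE 0.58, adjusted p = 0.215). Among the T cell signalling genes of the list, the kinase Lck was at 2346 ± 323 CPM in T cells, 56.4 ± 31.8 CPM in TDC and 1.08 ± 0.938 CPM in DC, and the scaffold Lat at 1208 ± 287, 27.1 ± 13.4 and 0.0592 ± 0.0720 CPM. In TDC both were lower than in T cells (adjusted p = 0.00124 and 6.21e-05) and higher than in DC (0.00296 and 0.000161).

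Of the 4 genes of inhibitory signalling, which act behind NKG2A, Ly49 and Klrg1, TDC were called above T cells for 2, and none was called between TDC and DC. The shares over all genes tested were 21.8% above T cells and 14.1% called between TDC and DC. The phosphatase Ptpn6 (SHP-1) was at 507 ± 47.1 CPM in T cells, 1014 ± 104 CPM in TDC and 1026 ± 116 CPM in DC (TDC against T cells 1.00, SE 0.26, adjusted p = 0.0136). Inpp5d (SHIP-1) was at 48.9 ± 4.73, 322 ± 234 and 322 ± 202 CPM (2.72, SE 0.60, adjusted p = 0.00632). Ptpn11 and Csk were not called in any comparison. For TDC against DC, where edgeR called none of the 4, 1 had an unadjusted p under 0.05, DESeq2 called 1 and limma-voom none.

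Ligands of the receptors were mostly at levels that the test did not tell apart. Of 18 ligand genes listed, 14 were found, 13 had reads and 8 were tested, with 1 call above T cells and 1 call below DC for the TDC, and none was called between DC and T cells (1 at an unadjusted p under 0.05, 1 with DESeq2 and 1 with limma-voom). Of all genes tested, TDC had 21.8% above T cells and 4.6% below DC, and 23.8% were called between DC and T cells. H2-T23, which encodes Qa-1, the ligand of CD94 with NKG2A or NKG2C, was at 596, 587 and 613 CPM in T cells, at 730, 420 and 559 CPM in TDC and at 715, 733 and 501 CPM in DC. The 3 populations overlapped (TDC against T cells -0.07, SE 0.30, adjusted p = 0.878). Clec2i, a ligand of Klrb1 receptors, was at 61.6 ± 20.6 CPM in T cells, 29.8 ± 16.9 CPM in TDC and 101 ± 26.03 CPM in DC, and was lower in TDC than in DC (-1.76, SE 0.45, adjusted p = 0.0253). Cdh1, E-cadherin and a ligand of Klrg1, was at 0.492, 0.0494 and 0 CPM in T cells, at 2.96, 8.20 and 2.83 CPM in TDC and at 0.383, 0.139 and 0 CPM in DC. It was called higher in TDC than in T cells (4.71, SE 1.57, adjusted p = 0.0405) and not against DC (4.63, SE 1.54, adjusted p = 0.0743).

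**Figure D4:**
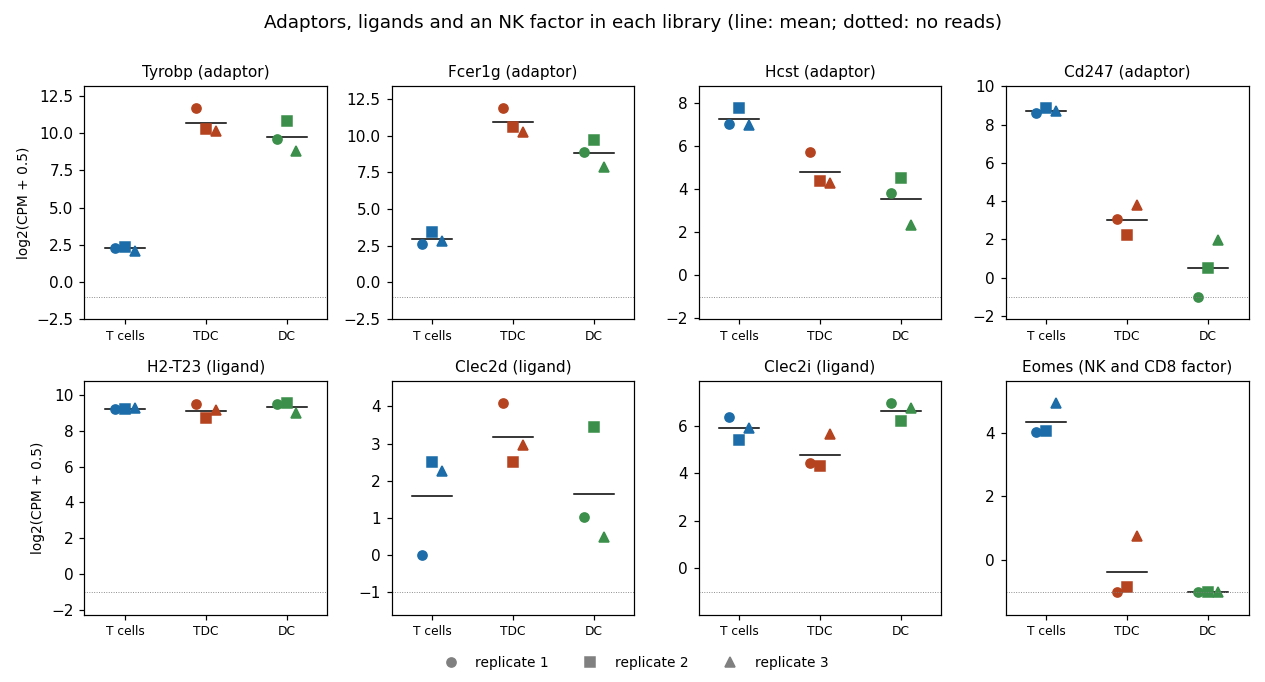
Each panel shows 1 adaptor, ligand or NK factor gene as log2(CPM + 0.5) in the 9 libraries, with symbols for replicates 1 to 3, a line at the group's mean on this scale and a dotted line where a library has no reads. Tyrobp and Fcer1g lie far above T cells in TDC and DC, Hcst and Cd247 lie below T cells, and H2-T23 overlaps between the 3 populations.

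Most listed genes of cytotoxic lymphocytes were lower in TDC than in T cells, as most of the receptors were. Of 20 listed, 18 were tested, of which 14 were lower and 2 higher in TDC (median -5.69). Over all genes tested, 11.2% were lower and 21.8% higher, with a median of 0.14. Nkg7, a granule protein, was at 389, 1195 and 624 CPM in T cells, at 23.2, 4.63 and 13.9 CPM in TDC and at 0.306, 0 and 0 CPM in DC. It was lower in TDC than in T cells (-5.73, SE 0.85, adjusted p = 0.000617) and higher than in DC (6.67, SE 1.00, adjusted p = 0.00207). Cd7, a surface glycoprotein of T and NK cells, was at 84.0 ± 24.6 CPM in T cells, 13.9 ± 14.1 CPM in TDC and 327 ± 151 CPM in DC, and like Klrd1 it was lower in TDC than in both (adjusted p = 0.0138 and 0.00277). Against DC, 2 of the 18 were higher in TDC and 3 lower (9.55% and 4.6% of all genes). DC against T cells gave 2 higher and 13 lower (15.4% and 8.41%).

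The list of 8 NK defining markers summed to 137 to 215 CPM (T cells), 84.2 to 190 CPM (TDC) and 44.8 to 107 CPM (DC), with 6 to 7, 4 to 5 and 1 to 6 genes with reads. In TDC the sum was almost all Sh2d1b1 (EAT-2, an adaptor of SLAM receptors), at 185, 97.6 and 80.6 CPM, which had no reads in T cells and 47.8, 105 and 44.8 CPM in DC. Perforin (Prf1) was at 63.1 ± 10.6 CPM in T cells, 0.869 ± 0.775 CPM in TDC and 0.0510 ± 0.0884 CPM in DC. Ncr1 was at 0 in all TDC libraries and Eomes at or below 1.19 CPM. The gamma delta and NKT markers summed to 16.9 to 34.8 CPM in T cells, at most 0.167 CPM in TDC and 1.39 to 4.23 CPM in DC, and their part in the T cell values of the receptors was not tested.

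Of 12 transcription factors of NK and effector cells, 11 were tested, and TDC were called above T cells for 3 and below them for 7, and above DC for 3 and below for 3. Over all genes tested, these shares were 21.8% and 11.2% against T cells, and 9.55% and 4.6% against DC. Id2, a regulator of NK cells and DC, was at 459 ± 187 CPM in T cells, 4893 ± 2462 CPM in TDC and 1309 ± 678 CPM in DC, and was higher in TDC than in both (adjusted p = 0.000790 and 0.0280). Zeb2 was also higher in TDC (203 ± 74.3 CPM) than in T cells (0.557 ± 0.289 CPM) and DC (64.3 ± 21.2 CPM). Ets1 averaged 667 ± 34.1 CPM (T cells) and 56.4 ± 11.6 CPM (TDC), a fall (-3.56, SE 0.72, adjusted p = 0.00392). Runx3, a RUNX factor of CD8 T cells, NK cells and DC, was at 45.6, 65.3 and 40.7 CPM in T cells, at 0.538, 3.85 and 16.8 CPM in TDC and at 96.7, 96.4 and 119.5 CPM in DC. It was lower in TDC than in T cells (-2.84, SE 0.84, adjusted p = 0.0254) and in DC (-3.88, SE 0.88, adjusted p = 0.0150), and like Klrd1 it was highest in replicate 3 within TDC.

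Myeloid lectins of the same gene complex showed the reverse of most of the receptors. Of 7 genes listed, 5 were tested, and all 5 of these were called above the T cell level both for TDC and for DC. Of all genes tested, 21.8% were called above that level for TDC and 15.4% for DC. Clec12a, an inhibitory myeloid receptor, was at 1.67 ± 2.88 CPM in T cells, 712 ± 348 CPM in TDC and 142 ± 34.0 CPM in DC. Clec1b was called higher in TDC (256 ± 120 CPM) than in DC (2.77 ± 3.20 CPM, adjusted p = 0.0106), and Clec9a, which marks cross-presenting DC, lower in TDC (14.5 ± 9.34 CPM) than in DC (110.2 ± 29.2 CPM, adjusted p = 0.0118).

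The 10 genes did not share 1 pattern. Over the 9 libraries, the correlation of log2(CPM + 0.5) with the mean of the 10 genes was 0.98 for Klrg1, 0.95 for Klrb1c, 0.94 for Klrc2, 0.92 for Klra1, 0.91 for Klra7 and 0.88 for Klre1. It was 0.58 for Klrd1, 0.47 for Klrc1, 0.12 for Klrb1b and -0.78 for Klrk1. Each of the 10 genes is itself part of this mean, and genes with a wide spread weigh most in it. Their values are therefore not comparable with those of genes outside the set. Among 10439 other genes, those most like this mean were Phgdh, Ppp1cc, Crlf3, Ppm1j, Zdhhc15, Tcrg-C1 and Il2rg (Pearson's r from 0.977 to 0.983) and a row whose symbol a spreadsheet had turned into a date. Il2rg, the common gamma chain of cytokine receptors, was at 736 CPM in T cells, 161 CPM in TDC and 238 CPM in DC on average. Tcrg-C1, a gamma chain constant gene, was at 6.66 CPM in T cells, 0 in TDC and 0.449 CPM in DC. The libraries share their populations, so these coefficients describe an order of 3 group levels more than a likeness of 9 independent values.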

How the data were processed

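RNA of 9 sorted libraries was counted per gene. The authors deposited 1 table of raw read counts, as whole numbers, for each gene symbol and library. Per the labels' protocols, the kit was Lexogen's stranded QuantSeq, a 3' tag method, so counts depend little on gene length and copies with like ends can be mixed up. Per the submitters' processing notes, FastQC, MultiQC, Trimmomatic, STAR and featureCounts were used and the build was hg38, although the symbols are mouse. Versions, annotation and strand setting were not given in the sources used here.

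Counts as deposited were fitted with edgeR 4.0.16 in R 4.3.3: TMM scaling, genes kept by filterByExpr at a minimum count of 10 and a minimum total of 15 (14708 genes, with 99.8% or more of every library's reads), and a robust quasi-likelihood model over all 3 populations (6 residual degrees of freedom). P-values were corrected by Benjamini-Hochberg at 0.05. The fit was tested on simulated data. An SE is the absolute log2 fold change over the root of the test's F, and bounds use 3 reads over a group. With values of single genes, 3 libraries against 3 allow no exact two-sided p below 0.1, so no permutation test was used. Alternatives were other scalings and filters, DESeq2 1.42.0, limma-voom (limma 3.58.1), fits of 2 populations, the replicate number as a block, leaving out each library, and summed copies of Klra, Klrc and Klrb1. Sums of rows with shared 3' windows and leaving out both libraries with Ncr1 reads were chosen after seeing the data.

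Replicate libraries differed beyond sampling noise (chi-square per gene 62.3 to 250). Loci and transcript ends came from a GENCODE annotation of GRCm38, and promoters from RefSeq. The 10 genes, the gene lists and the naming rule were chosen with earlier results of these data known. The rule named all 10 genes, the 4 other Klr rows with the highest mean, up to 4 genes a list with the highest CPM and Tyrobp, Hcst, H2-T23, Ncr1, Eomes, Cd8a and Trac, and the 8 genes most like the mean of the members. Cd3e, Cd4, Runx3, Cd247, Cdh1, Klra13-ps, Klra17 and Gm44511 fall outside it and were chosen after their values were seen. Cd244 was also chosen after its values were seen.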

Additional observations from a re-analysis of the deposited data

How the results depend on the processing

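Each population has 3 pooled libraries, the low rows rest on few reads, and their intervals span several log2 units. Over the alternatives, single-gene results kept direction and side of the threshold in 186 cases (TDC and T cells), 180 (TDC and DC) and 187 (DC and T cells). A call was lost in 19, 0 and 14 cases, gained in 1, 10 and 6, and the sign turned in 2, 12 and 2. Genes with no reads in both populations under an alternative gave no value. With all Klra, Klrc and Klrb1 rows summed, which leaves 7 rows in place of the 10 members, 5 rows were called for TDC against T cells, 2 for DC against T cells and 2 for TDC against DC, where the members gave 8, 5 and 1. For TDC against DC there were 2 calls with library size as the scale, 2 without a filter, 3 with DESeq2 and 2 with limma-voom. Leaving out 1 library gave 6 to 8 calls for TDC against T cells, 1 to 3 for TDC against DC (3 without DC replicate 3) and 3 to 5 for DC against T cells (3 without T cell replicate 1 or 2). Library size alone moved the median over all genes by -0.61, -0.29 and -0.29 on the log2 scale (TDC and T cells, TDC and DC, DC and T cells). Calls over all genes for TDC against T cells then went from 3204 higher and 1654 lower to 2492 and 3321, and the mean summed CPM of the members was 343 in T cells and 90.3 in TDC.

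The sign turned for values that were not called. Klrb1b in TDC against T cells was 0.25 with limma-voom and -3.90 to 5.07 with 1 library left out, and in DC against T cells -1.51 with shared 3' windows summed. Klrk1 in TDC against DC ran from -0.15 to 0.16 with 1 library left out and was 0.16 without both libraries with Ncr1 reads. Klrc2 in TDC against DC was 0.46 with limma-voom, 2.96 with copies summed, 2.96 with shared windows summed, 3.26 without both libraries with Ncr1 reads, and -1.02 to 3.25 with 1 library left out. Klrb1c in TDC against DC was 3.57 without both libraries with Ncr1 reads and -7.21 to 3.57 with 1 library left out, and in DC against T cells it was 1.80 with copies summed. The cause was not tested, apart from the sums, which add the reads of other rows.

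The labels give each replicate number a prefix of its own, without saying what it marks, and the deviations did not meet the bar set for treating the numbers as pairs: of 9 pairs of libraries with the same number, those from the group means correlated at -0.48 to 0.31, 2 of them above 0.1, and 3 of 9 libraries were closest to their own number. With the replicate number as a block, 7 of the members were called between TDC and T cells, 1 between TDC and DC and 4 between DC and T cells, and Klrc2 in TDC against DC was 0.11.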
